A study of Homo sapiens with 6 samples.

Results

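The enzymes that trim procollagen and the proteins that assist them were followed in IMR-90 cells depleted of ZNF469. The group comprised 8 genes of the 23754 features in the deposited table, found by their symbols: the N-propeptide proteinases ADAMTS2, ADAMTS3 and ADAMTS14, the C-propeptide proteinases BMP1, TLL1 and TLL2, and the C-proteinase enhancers PCOLCE and PCOLCE2. IMR-90 is a human fetal lung fibroblast line. All cells carried the puromycin-selected, doxycycline-inducible Tet-pLKO-puro hairpin sh-2 against ZNF469 and were kept in 0.5 µg/mL puromycin. In the DOX+ group, labelled ZNF469-knockdown, the hairpin was induced with 2 µg/mL doxycycline for 4 days (3 libraries), and the DOX- group, labelled wild-type, was the same line without doxycycline (3 libraries). The design text calls the 3 libraries of a group technical replicates, so p-values measure the spread between these libraries only. Doxycycline and the hairpin came together in every DOX+ library and cannot be told apart here.

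Fibrillar procollagens leave the cell with a globular propeptide at each end of the triple helix, and fibrils form once these ends are removed. BMP1 and its relatives TLL1 and TLL2, zinc metalloproteinases of the astacin family, cut off the C-propeptides and also mature several other matrix proteins. Their cut at the C-propeptide is accelerated by PCOLCE and PCOLCE2, which bind the propeptide and have no protease activity of their own. The N-propeptides are removed by ADAMTS2, ADAMTS3 and ADAMTS14, and loss of ADAMTS2 causes the dermatosparaxis type of Ehlers-Danlos syndrome. Loss of BMP1 causes a recessive osteogenesis imperfecta. Fibroblasts are a main source of these enzymes in lung.

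Library depth was even, at 34057675 to 36120260 counts. ZNF469 itself fell from 119 ± 7.25 CPM (SD, n = 3; CPM being counts relative to the TMM-scaled library size) in DOX- cells to 80.1 ± 0.488 CPM (SD, n = 3) in DOX+ cells. In a principal component analysis, DOX+ replicate 2 stood apart on the first component (score of 32.8, against -12.6 to 0.524). This component held 23.9% of the variance. On the second component, DOX+ replicate 3 (-29) and DOX- replicate 1 (20.3) lay at the ends. All 10 fibroblast markers were tested. Of these, 5 fell past an adjusted p of 0.05 in edgeR (COL1A1, COL1A2, COL3A1, DCN and LUM), where 0.715% of all features tested were called lower. LUM was at the threshold (edgeR adjusted p = 0.0499), and VIM, THY1, PDGFRA, PDGFRB and FAP did not pass. The summed level of the 10 markers was 36849 to 37972 CPM in DOX- and 27479 to 28374 CPM in DOX+ libraries. Of the markers of other cell types, 6 of 10 epithelial (among them SFTPC and NKX2-1), 3 of 7 endothelial (PECAM1, CDH5 and EMCN) and 4 of 8 immune genes (among them CD3E and LYZ) had 0 counts in every library. The summed levels of these lists overlapped between DOX- and DOX+ libraries, at 3.93 to 4.43 against 3.67 to 4.39 CPM for epithelial, 20.1 to 24.4 against 20.6 to 24.0 CPM for endothelial and 60.8 to 66.8 against 59.2 to 65.4 CPM for immune markers. Most of the endothelial sum was TEK (means of 20.9 CPM in DOX- and 21.1 CPM in DOX+ cells). Most of the immune sum was CD68, a lysosomal gene. Smooth muscle and pericyte markers summed to 856 to 903 CPM in DOX- and 825 to 882 CPM in DOX+ libraries, with 0 of 6 past an adjusted p of 0.05 in edgeR and limma-voom and 1 in DESeq2. At an unadjusted p under 0.05 there were 2 in edgeR (RGS5, higher, and CSPG4, lower), where 15.0% of all features passed. In limma-voom there were 3, these and MYH11. What part such cells have in the results was not tested.

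In each of the 3 roles, 1 gene supplied nearly all of the transcript. By FPKM, the deposited level corrected for transcript length and library depth, PCOLCE made up 99.21% to 99.65% of the summed enhancer level in a library, ADAMTS2 99.15% to 99.49% of the N-proteinases and BMP1 99.81% to 100% of the C-proteinases. PCOLCE was highest at 136 ± 1.50 FPKM (SD, n = 3) in DOX- cells, and its mean over the 6 libraries was above that of 96.9% of the features tested. ADAMTS2 followed at 36.2 ± 1.12 FPKM (SD, n = 3) and BMP1 at 28.0 ± 0.709 FPKM (SD, n = 3). PCOLCE2 was far lower, at 0.604 ± 0.111 FPKM (SD, n = 3). ADAMTS14, at 0.149 ± 0.0442 FPKM (SD, n = 3), and ADAMTS3, at 0.133 ± 0.0116 FPKM (SD, n = 3), overlapped in level. TLL2 was listed at 0, 0.0530 and 0.0440 FPKM in DOX- replicates 1, 2 and 3, and TLL1 had 0 counts in all 6 libraries, which allows up to 3 counts or 0.0831 to 0.0881 CPM in a library. Apart from ADAMTS3 and ADAMTS14, neighbours in this order did not overlap within DOX- libraries other than TLL2 and TLL1, whose values met at 0. The order of the 7 detected genes by their DOX- mean stayed the same when levels were taken as counts per kilobase. The lengths used there were derived from the same counts and FPKM, so the order could hardly change and this is no independent check.

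**Figure D1:**
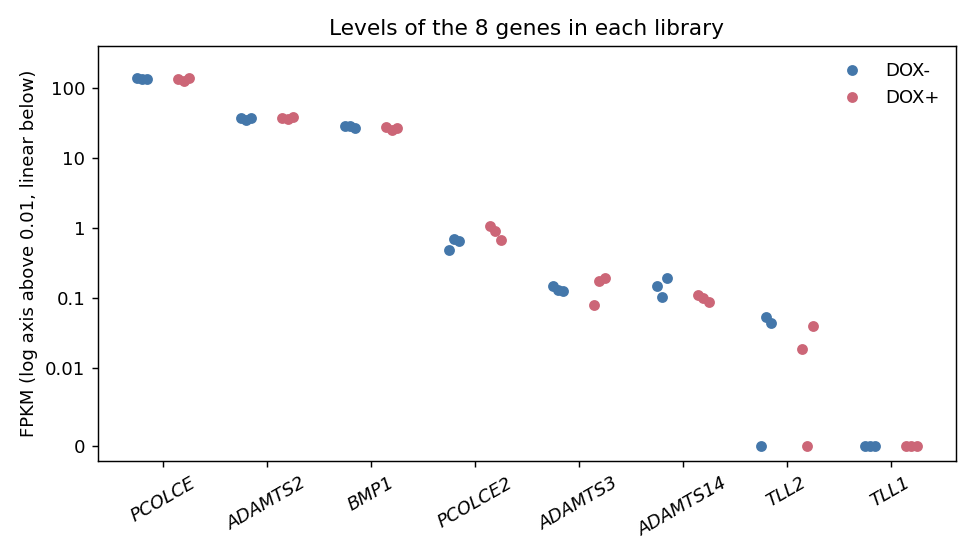
Deposited FPKM values of the 8 genes, 1 point per library, for DOX- (blue) and DOX+ (red) cells (n = 3 each); the axis is logarithmic above 0.01 and linear below. PCOLCE, ADAMTS2 and BMP1 lie between 25.2 and 137 FPKM, PCOLCE2 between 0.478 and 1.06, and the other 4 genes below 0.2.

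The genes lie on separate parts of the genome (GRCh38, GENCODE 44). PCOLCE is compact, with 9 exons in 5813 bases at chr7:100602363-100608175 on the plus strand, whereas its relative PCOLCE2 has 9 exons in its canonical transcript spread over 73285 bases at chr3:142815922-142889206 on the minus strand. ADAMTS2 (chr5:179110853-179345461, minus strand), ADAMTS3 (chr4:72280969-72569221, minus strand) and ADAMTS14 (chr10:70672506-70762441, plus strand) share a layout of 22 exons. TLL1 (chr4:165873237-166104457, plus strand) and TLL2 (chr10:96364608-96513926, minus strand) each have 21 exons in the canonical transcript. The annotated antisense gene PCOLCE-AS1 shares 562 exonic bases with PCOLCE. The library kit as named does not state that strand was kept, so reads of the 2 genes may not be told apart.

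The upstream sequences of 3 of these genes are printed because the genes differ so widely in level: PCOLCE, its weakly transcribed relative PCOLCE2, and TLL1, which was not detected. Each window holds the 250 bases before the RefSeq gene start in GRCh38.p14, read 5′ to 3′ on the gene's strand, and capitals mark matches on either strand to 4 motifs: TATAAA for the TATA box, CCAAT for the CCAAT box, GGGCGG for the GC box and CAGAC for a SMAD-binding sequence. The windows are chr7:100602113-100602362 (PCOLCE, plus strand), chr3:142889084-142889333 (PCOLCE2, minus strand) and chr4:165872987-165873236 (TLL1, plus strand). The GENCODE span of PCOLCE2 reaches 142889206, so the part of its window nearest the RefSeq start lies inside that annotated gene.
PCOLCE: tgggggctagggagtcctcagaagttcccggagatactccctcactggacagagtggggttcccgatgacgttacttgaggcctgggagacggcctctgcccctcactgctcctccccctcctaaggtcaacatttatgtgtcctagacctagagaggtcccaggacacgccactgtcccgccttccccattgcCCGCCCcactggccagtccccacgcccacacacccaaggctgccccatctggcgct
PCOLCE2: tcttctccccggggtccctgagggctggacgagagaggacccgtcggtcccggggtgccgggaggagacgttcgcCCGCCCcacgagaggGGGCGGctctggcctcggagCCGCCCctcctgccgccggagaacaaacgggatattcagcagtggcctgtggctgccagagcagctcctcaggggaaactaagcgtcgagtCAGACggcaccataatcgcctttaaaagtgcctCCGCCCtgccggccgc
TLL1: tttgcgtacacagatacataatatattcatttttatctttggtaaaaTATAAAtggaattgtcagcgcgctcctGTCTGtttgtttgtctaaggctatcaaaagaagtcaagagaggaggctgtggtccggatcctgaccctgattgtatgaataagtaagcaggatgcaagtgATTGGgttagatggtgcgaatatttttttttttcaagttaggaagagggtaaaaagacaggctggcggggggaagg
The PCOLCE window held 1 GC box and 9 CpG dinucleotides. The PCOLCE2 window, of a gene with far less transcript, held 4 GC boxes, 1 SMAD-binding sequence and 23 CpG. TLL1 had an AT-rich window (40.4% GC) with 1 TATA box, 1 CCAAT box, 1 SMAD-binding sequence, 0 GC boxes and 6 CpG. The ADAMTS2 and ADAMTS14 windows each held 4 GC boxes, with 40 and 35 CpG, although the levels of these 2 genes differed as widely as those of the 2 enhancers, so neither count ordered the genes by level. Among 35116 promoter windows of the same length, 42.6% had a GC box, 38% a SMAD-binding sequence, 32% a CCAAT box and 10.7% a TATA box, and the median CpG count was 11. The table held windows for 7 of the 8 genes. The matches describe the letters only.

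The question of the comparison was whether the genes that process procollagen moved with the collagens when ZNF469 was depleted. Of the 8 genes, 7 had enough counts to be tested, and 0 passed an adjusted p of 0.05 in edgeR's quasi-likelihood test, where 1.12% of all 13991 features tested did (0.400% higher and 0.715% lower). At an unadjusted p under 0.05, the count was again 0 of 7, against 15.0% of all features (7.31% higher and 7.69% lower). DESeq2 and limma-voom also gave 0 of 7 at either threshold, though DESeq2 gave no adjusted p for 4 of them. The fitted values were higher for 3 genes and lower for 4, with a median log2 fold change of -0.06 against -0.0019 for all features. TLL2 passed the filter on low counts with at most 14 counts in a library, so its fitted value has little weight.

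Among the C-propeptide enzymes, BMP1 (chr8:22165140-22212326, plus strand, 20 exons in the canonical transcript) is annotated with 4 protein-coding transcripts of different length, which gene-level counts do not separate. A long noncoding RNA gene on the same strand, ENSG00000177725, shares 461 of its exonic bases, and reads there cannot be assigned to either gene by strand. BMP1 had 3829, 3836 and 3789 counts in DOX- replicates 1 to 3 and 3804, 3605 and 3921 in DOX+ replicates 1 to 3. After scaling these were 113, 109 and 109 CPM against 107, 102 and 108 CPM. The DOX+ values lay just below the DOX- values after TMM scaling, a separation that 20.3% of all features showed, but DOX+ replicate 3 rose above DOX- replicate 3 when counts were divided by the library total alone (108.55 against 107.27 CPM). The log2 fold change was -0.06 (SE 0.0417) with an adjusted p of 0.509 in edgeR. An exact two-sided permutation of the 6 libraries gave p = 0.1, which is the lowest value this design can reach. The 95% interval of -0.15 to 0.03 spans 0.899-fold to 1.02-fold of the DOX- level. Without DOX+ replicate 2 the log2 fold change was -0.04 (edgeR adjusted p = 0.822), and without DOX+ replicate 3 it was -0.08 (edgeR adjusted p = 0.429).

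The tolloid-like relatives added almost no transcript. TLL2 had 0, 14 and 12 counts in DOX- replicates and 5, 0 and 11 counts in DOX+ replicates, so each group held a library at 0 and the groups overlapped. The log2 fold change of -0.73 had a 95% interval from -2.88 to 1.42 (edgeR adjusted p = 0.782), and a change was not detectable at this depth. The value rested on single libraries: it was -0.16 without DOX+ replicate 2, -0.22 without DOX- replicate 2 and -0.43 without DOX- replicate 3, but -1.30 without DOX- replicate 1 and -1.77 without DOX+ replicate 3. TLL1, which is required for heart septation in the mouse, was at 0 in every library and was not tested.

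The enhancer PCOLCE had 8718, 8887 and 9118 counts in DOX- replicates 1 to 3 and 8816, 8157 and 9185 in DOX+ replicates 1 to 3, or 257, 253 and 261 CPM against 247, 230 and 254 CPM. DOX+ replicate 2 was the lowest and DOX+ replicate 3 fell inside the DOX- range. Its log2 fold change was -0.08 (SE 0.0406, adjusted p = 0.393 in edgeR), with a 95% interval of -0.17 to 0.01. Without DOX+ replicate 2, which stood apart on the first component, the log2 fold change was -0.04 (edgeR adjusted p = 0.763). Without DOX+ replicate 3 it was -0.11 (edgeR adjusted p = 0.243).

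PCOLCE2 had the smallest p-value of the group in edgeR and, unlike PCOLCE, a higher fitted level in DOX+ cells. In limma-voom the adjusted p was lower for PCOLCE (0.369) than for PCOLCE2 (0.403). Its counts were 37, 54 and 52 in DOX- replicates 1 to 3 and 84, 71 and 54 in DOX+ replicates 1 to 3, equal to 1.09, 1.54 and 1.49 CPM against 2.35, 2.00 and 1.49 CPM. DOX+ replicates 1 and 2 were above all DOX- libraries, whereas DOX+ replicate 3 lay within their range. The log2 fold change of 0.50 (SE 0.248, edgeR p = 0.0631, edgeR adjusted p = 0.364; exact permutation p = 0.2) had a 95% interval from -0.03 to 1.04, or 0.978-fold to 2.05-fold. It was 0.35 without DOX+ replicate 1, 0.48 without DOX+ replicate 2 and 0.66 without DOX+ replicate 3, with edgeR adjusted p-values of 0.666, 0.594 and 0.241. PCOLCE2 was 0.348% to 0.789% of the summed enhancer FPKM in a library.

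The genes whose log2 CPM over the 6 libraries was most like that of PCOLCE2 were MTAP, a methionine salvage enzyme (Pearson r = 0.981), and SFR1, which takes part in homologous recombination (r = 0.980), among 11214 candidates. In all, 26 candidates had r over 0.95, and 6 libraries are few for such a ranking. The DOX- mean of MTAP was 40.6 ± 1.58 CPM (SD, n = 3) and the DOX+ mean 43.7 ± 2.04 CPM (SD, n = 3), and like PCOLCE2 it did not pass the test (edgeR adjusted p = 0.389). SFR1 was at 2.89 ± 0.461 and 3.74 ± 0.585 CPM (SD, n = 3 each; edgeR adjusted p = 0.363).

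Of the N-propeptide enzymes, ADAMTS2 had 8317, 8336 and 8870 counts in DOX- replicates 1 to 3 and 8721, 8704 and 9339 in DOX+ replicates 1 to 3. In CPM these were 246, 237 and 254 against 244, 246 and 258. DOX+ replicate 3 was the highest library and the other two DOX+ libraries lay within the DOX- range. Its log2 fold change of 0.02 (SE 0.0388, adjusted p = 0.846 in edgeR) was larger in size than that of only 13.9% of the features tested, and the 95% interval of -0.06 to 0.11 covered both directions. The sign changed with the length trend of the counts removed, without DOX- replicate 2 and without DOX+ replicate 3.

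ADAMTS3, which also activates the lymphatic growth factor VEGFC, had 36, 33 and 32 counts in DOX- replicates and 20, 42 and 50 in DOX+ replicates. The DOX+ libraries lay on both sides of the narrow DOX- range, and the log2 fold change of 0.10 (95% interval -0.64 to 0.84, edgeR adjusted p = 0.926) changed sign without DOX+ replicate 2 or DOX+ replicate 3. ADAMTS14 had 30, 22 and 40 counts in DOX- replicates and 24, 20 and 19 in DOX+ replicates. DOX+ replicates 2 and 3 were below all DOX- libraries and DOX+ replicate 1 was not. Its log2 fold change was -0.59 (95% interval -1.34 to 0.16, edgeR adjusted p = 0.456), and it ranged from -0.79 without DOX- replicate 2 to -0.36 without DOX- replicate 3. ADAMTS3, ADAMTS14 and TLL2, with at most 50 counts in a library, had intervals more than 1 log2 unit wide, within which the ZNF469 value of -0.57 also lay.

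**Figure D2:**
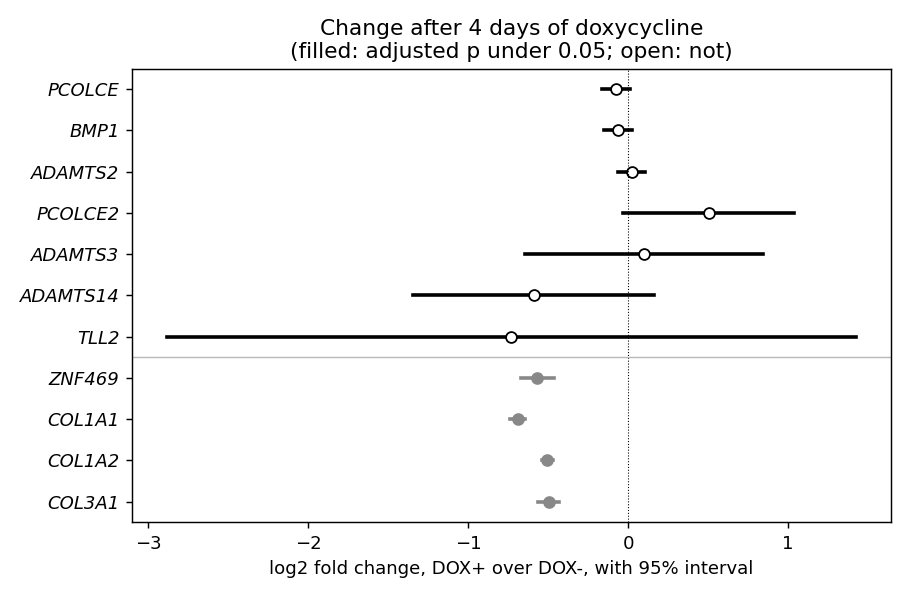
Log2 fold changes of DOX+ over DOX- cells with 95% intervals from edgeR's quasi-likelihood fit (n = 3 libraries per group), for the 7 genes tested (black) and for ZNF469 and 3 collagen genes (grey). Open points did not pass an adjusted p of 0.05; PCOLCE, BMP1 and ADAMTS2 sit within 0.1 of 0 with narrow intervals, while the intervals of the 4 genes with few counts are wide.

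Of 11 fibrillar procollagen chains, 10 were tested, 4 fell and 0 rose past an adjusted p of 0.05 in edgeR (median log2 fold change -0.20). Among all features, 0.715% were called lower and 0.400% higher. COL1A1, the main chain of type I collagen, was at 15619, 15064 and 15843 CPM in DOX- and 9793.8, 9291.5 and 9744.5 CPM in DOX+ replicates 1 to 3. COL1A2 fell by 0.50, COL3A1 by 0.50 and COL5A2 by 0.34 on the log2 scale, and the highest adjusted p among these chains was 2.29e-05 in edgeR. Of the other chains, COL5A1, named after its values were seen, had a log2 fold change of -0.05 (edgeR adjusted p = 0.453). COL11A2, also named after its values were seen, had 26 to 59 counts and a log2 fold change of -0.72 (edgeR adjusted p = 0.246). Fitted values were lower for 7 of the 10 chains tested and higher for 3. COL2A1 had 0 counts in every library.

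Within a library, more transcript of each abundant processing gene was present for each COL1A1 transcript. BMP1 had 7.24, 7.24 and 6.86 counts per 1000 COL1A1 counts in DOX- replicates and 10.9, 10.9 and 11.1 in DOX+ replicates, a 1.54-fold higher ratio. PCOLCE had 16.5, 16.8 and 16.5 against 25.2, 24.8 and 26.0, a 1.53-fold higher ratio. ADAMTS2 had 15.7, 15.7 and 16.1 against 25.0, 26.4 and 26.5, a 1.64-fold higher ratio. Every DOX+ library lay above every DOX- library for the 3 ratios (exact permutation p = 0.1 for each, two-sided, and 0.1 after adjustment over the 3; no lower value is possible with these libraries). A ratio within a library needs no scaling, but it shows unequal change only, and the fall of COL1A1 enters all 3. COL1A1 was at 62.0% of its DOX- level, so a gene without any change would also have a higher ratio. The share of all features whose ratio to COL1A1 separates in this way was not computed, so the separation cannot be called particular to these genes. With FPKM in place of counts the ratios were 1.48, 1.53 and 1.62 times higher.

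**Figure D3:**
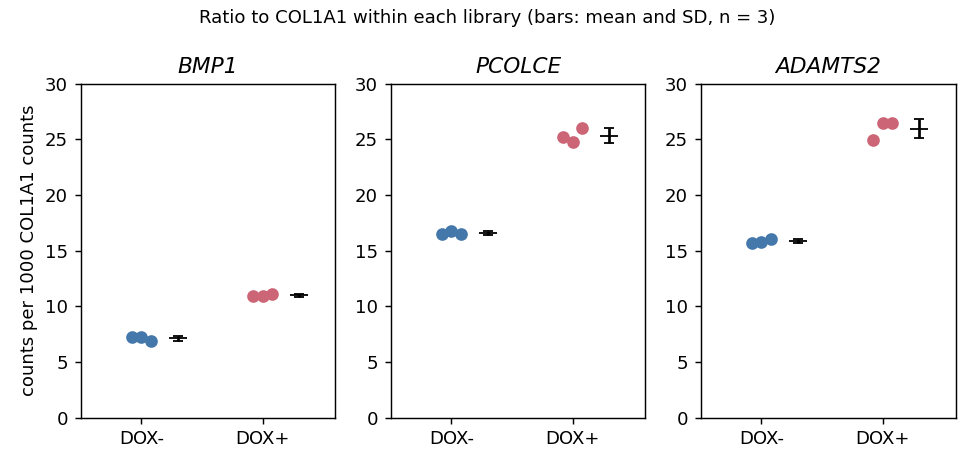
Counts of BMP1, PCOLCE and ADAMTS2 per 1000 COL1A1 counts in each library, DOX- in blue and DOX+ in red, with the mean and SD of 3 libraries as black bars; the axis starts at 0. The DOX+ libraries lie above the DOX- libraries in each panel, at 10.9 to 11.1 against 6.86 to 7.24 for BMP1.

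The shift was not the same for each substrate in ratios added after seeing the data. The processing genes themselves changed little (log2 fold changes of -0.06 for BMP1, -0.08 for PCOLCE and 0.02 for ADAMTS2). These ratios therefore largely restate the change of each substrate. The share of all features whose ratios would separate was not computed. Per COL5A1, a regulator of fibril diameter, BMP1 was at 13.9 to 14.7 counts per 100 in DOX- and 13.9 to 14.5 in DOX+ libraries, and PCOLCE at 33.3 to 34.1 and 31.4 to 33.9, so both overlapped, whereas ADAMTS2 did not, at 31.8 to 32.5 in DOX- and 33.2 to 34.4 in DOX+ libraries. Per COL11A1, BMP1 was at 162 to 166 and 160 to 164 counts per 100, which also overlapped. Per COL3A1 the DOX- and DOX+ ranges separated, at 13.7 to 14.3 and 18.6 to 19.2 for BMP1 and at 30.8 to 32.1 and 43.9 to 45.8 for ADAMTS2. Per LOX, the collagen cross-linking enzyme that BMP1 activates, the direction was opposite: BMP1 was at 7.46 to 7.67 counts per 100 LOX counts in DOX- and 5.98 to 6.74 in DOX+ libraries.

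Of 23 other proteins described as substrates of BMP1 and its relatives, 18 were tested. Past an adjusted p of 0.05 in edgeR, 2 rose and 1 fell, where 0.400% of all features were called higher and 0.715% lower. LOX was at 1474, 1461 and 1433 CPM in DOX- and 1628, 1699 and 1606 CPM in DOX+ replicates 1 to 3 (log2 fold change 0.18, edgeR adjusted p = 0.00531). THBS1, which encodes a thrombospondin, averaged 2082 ± 65.5 CPM (SD, n = 3) without and 2321 ± 23.6 CPM (SD, n = 3) with doxycycline (edgeR adjusted p = 0.00629), a call lost without DOX- replicate 1 (0.0602) or DOX+ replicate 1 (0.0595). The proteoglycan gene DCN, whose product binds collagen fibrils, fell to 1443 ± 15.1 CPM (SD, n = 3) in DOX+ cells, against 1640 ± 62.3 CPM (SD, n = 3) in DOX- cells, with an edgeR adjusted p of 0.00557 that became 0.0529 without DOX- replicate 1. The other 15 tested did not pass in edgeR, and the median log2 fold change of the 18 was 0.0011. DESeq2 called 4 of the 18 (2 higher and 2 lower), against 260 higher and 267 lower among all 13991 features. In limma-voom 3 were called, against 56 higher and 98 lower among all features.

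Of 13 genes for regulators of the proteinases, 9 were tested and 1 rose past an adjusted p of 0.05 in edgeR (0.400% of all features were called higher). POSTN, whose product periostin binds BMP1 and fibronectin, was at 10.4, 10.3 and 9.66 CPM in DOX- and 15.6, 16.4 and 14.0 CPM in DOX+ replicates 1 to 3. Its log2 fold change was 0.60 (SE 0.0935, adjusted p = 0.00595 in edgeR), past 0.05 in all 16 alternative settings. FURIN, a convertase that removes the prodomains of such proteinases and is named after its values were seen, was at 164, 152 and 168 CPM in DOX- and 173, 181 and 188 CPM in DOX+ replicates (edgeR adjusted p = 0.116, and 0.00846 with DESeq2). TIMP3, an inhibitor of several ADAMTS enzymes also named after its values were seen, had a log2 fold change of 0.0036 (95% interval -0.08 to 0.08, edgeR adjusted p = 0.976). The meprins MEP1A and MEP1B, astacin proteinases that can also cut procollagen, had 0 counts in every library.

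Of 16 other ADAMTS proteinases, 10 were tested and 0 passed an adjusted p of 0.05 in edgeR, DESeq2 or limma-voom, with 2 at an unadjusted p under 0.05 in each tool (15.0% of all features in edgeR). These were ADAMTS7 (61.7 ± 3.98 CPM in DOX- and 53.9 ± 4.13 CPM in DOX+ cells, SD, n = 3 each; edgeR adjusted p = 0.164) and ADAMTS15 (6.34 ± 0.640 and 8.16 ± 1.04 CPM, SD, n = 3 each; edgeR adjusted p = 0.214). Of 6 ADAMTS-like proteins, which lack the protease domain, 4 were tested and 0 passed in the same 3 tools, with ADAMTSL1 alone at an unadjusted p under 0.05 (log2 fold change 0.12, edgeR adjusted p = 0.285) and ADAMTSL5 next (-0.17, edgeR adjusted p = 0.400). Of 11 astacin and CUB-domain relatives, 7 were tested and SCUBE3, a secreted CUB-domain protein, rose to 128 ± 1.30 CPM (SD, n = 3) in DOX+ cells, against 100 ± 2.55 CPM (SD, n = 3) in DOX- cells, with an edgeR adjusted p of 0.00041 (0.400% of all features were called higher).

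**Figure D4:**
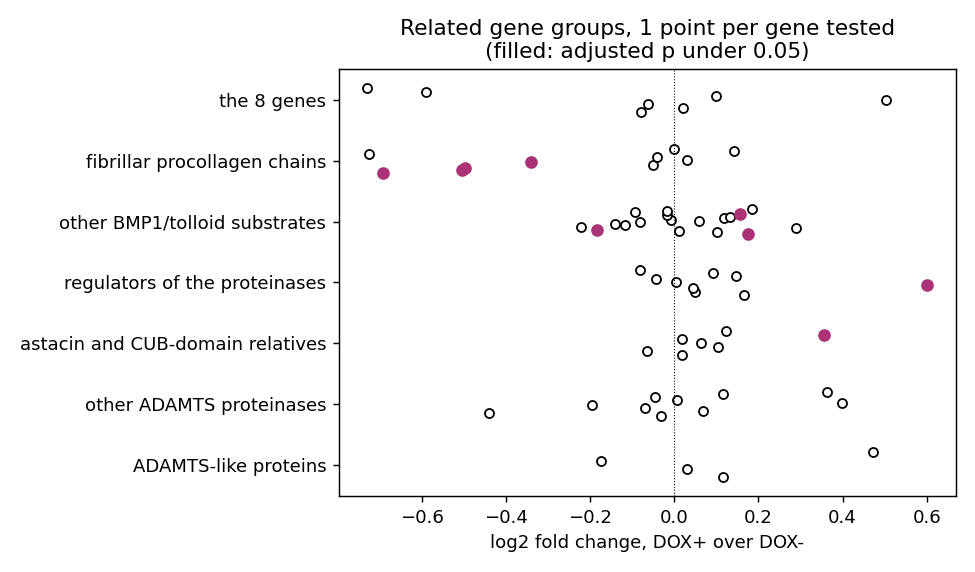
Log2 fold changes of DOX+ over DOX- cells, 1 point per gene tested, for the 8 genes (7 tested) and 6 related lists; filled points passed an adjusted p of 0.05 in edgeR's test (n = 3 libraries per group). Filled points to the left of 0 are 4 fibrillar procollagen chains and DCN, and those to the right are LOX, THBS1, POSTN and SCUBE3.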

How the data were processed

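Poly(A)-selected RNA of 6 libraries was sequenced paired-end at 150 bp. The study's methods state that the authors removed low-quality reads, mapped the rest on GRCh38 by HISAT2 and used StringTie downstream. Versions, the annotation release and the counting step are not given in the sources used here. The deposited counts are whole numbers without normalization, and the deposited FPKM values are levels corrected for length and depth by the authors. FPKM served to compare levels between genes and counts served for the tests. Of the table, 17 stray text lines without values were dropped.

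Features were kept by filterByExpr (minimum count 10), scaled by TMM and compared with the quasi-likelihood test of edgeR 4.0.16 in R 4.3.3, and p-values were adjusted by the Benjamini-Hochberg method over all 13991 features kept. The sample titles read Control and Sh-ZNF469, and the names DOX- and DOX+ for these groups follow the study's methods. Standard errors are the log2 fold change over the square root of F. Alternatives were library size, DESeq2 size factor and upper-quartile scaling, 2 other filters (none, and 50 counts in each library of a group), DESeq2 1.42.0, limma-voom (limma 3.58.1), a replicate block, removal of a lowess trend on gene length (span 0.3; length from counts and FPKM), leaving out each library and, added later, leaving out unannotated loci. The script was tested on simulated data. The 95% intervals come from the quasi-likelihood fit and include the spread between libraries, whereas the floor of 3 counts covers counting error only.

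The 8 genes and all lists were chosen with earlier results of these data known. Named genes are the 8, ZNF469, COL1A1, COL1A2, COL3A1, the called members of each related list (without any, the 2 with the smallest p) and the 2 features most correlated with the called gene of the 8 or, with none called, with that of smallest p. Gene positions are from GENCODE 44 and promoter windows from RefSeq.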

Additional observations from a re-analysis of the deposited data

How the results depend on the processing

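Of the 8 genes, 0 were called higher and 0 lower in each of the 16 alternative settings. Over these, edgeR, DESeq2 or limma-voom adjusted p-values were 0.217 or more for PCOLCE, 0.404 for BMP1, 0.628 for ADAMTS2, 0.241 for PCOLCE2, 0.392 for ADAMTS14, 0.638 for ADAMTS3 and 0.529 for TLL2. The last 3 were removed by the stricter filter, and DESeq2 gave no adjusted p for these 3 and PCOLCE2. The log2 fold change of ADAMTS2 reversed to -0.015 with the length trend removed and reached -0.0029 without DOX- replicate 2 and -0.0030 without DOX+ replicate 3, and its highest value with a library left out was 0.047. That of ADAMTS3 reversed to -0.00044 without DOX+ replicate 2 and -0.16 without DOX+ replicate 3, and its highest value was 0.40 without DOX+ replicate 1; the cause was not tested beyond the loss of a library. Over all features, 56 were called higher and 100 lower; these counts were 127 and 163 without a filter, 260 and 267 with DESeq2, and 88 and 77 with library size scaling. With 1 library left out they ranged from 20 (without DOX+ replicate 1) to 69 (without DOX+ replicate 3) higher and from 54 to 92 lower, the same libraries giving the ends. With the replicate block, 135 were higher and 157 lower; same-numbered libraries did not deviate together (correlations of -0.0241, -0.0352 and 0.0363), so the numbers are not taken as pairs. The ratios to COL1A1 kept their direction with each library left out and with FPKM. The 4 tested genes with under 100 counts per library had wide intervals, and PCOLCE, BMP1 and ADAMTS2 had narrow ones. What part depth has in this was not tested.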
